A study of Mus musculus with 2 samples.

Results

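Gene end peaks are stretches of open chromatin at the far end of genes: ATAC-seq peaks that the deposited annotation places in a 3' UTR or within 3000 bp downstream of a transcript's end. They were chosen by that annotation alone, with no measured value used, and they number 2313 of the 83549 peaks in the table. Of these, 1268 carried the 3' UTR label and 1045 a downstream label, with 345 less than 1 kb, 339 between 1 and 2 kb and 361 between 2 and 3 kb beyond the end.

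The data came from the hearts of mice aged 4 days, with 1 ATAC-seq library for each genotype. The Wtap-CKO library was made from a pool of 6 mice that lack Wtap in cardiomyocytes, and the Wtapflox/flox library from a pool of 7 mice that carry the floxed alleles. The knockout concerns cardiomyocytes, so the other cells of the heart keep the gene, and the promoter that drives the recombinase is not given in the sources used here. Since each genotype is 1 pooled library, no difference below has a replicate check, no test was possible, and every interval is a 95% interval that covers counting error only.

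ATAC-seq uses a transposase that cuts and tags DNA where nucleosomes leave it exposed, so that the reads under a peak measure how accessible that DNA is. The 3' UTR is the stretch of an mRNA after the stop codon. It holds sites for microRNAs and RNA-binding proteins, and in mammalian mRNA it is, with the region around the stop codon, where the base modification N6-methyladenosine (m6A) is most often placed. Wtap is the regulatory subunit that holds the m6A methyltransferase complex in nuclear speckles. The methyl mark lies on RNA, while the values here are of DNA at the same ends of genes, where chromatin can be open at enhancers, at the start of a neighbouring gene or at the place where transcription stops.

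The peaks held 9816384 reads from Wtap-CKO hearts and 9835753 from Wtapflox/flox hearts. Counts were scaled to counts per 1e6 (CPM) of the reads in peaks, 0.5 CPM was added to each value, and the log2 ratio was then formed with Wtap-CKO on top, so that values above 0 mean higher in Wtap-CKO. The only gene on chromosome 17 that the table ties to the m6A methyltransferase complex, which is where the mouse reference places Wtap, had 1 promoter peak and 0 gene end peaks. That promoter peak held 606 reads from Wtap-CKO hearts and 651 from Wtapflox/flox hearts (log2 ratio -0.10, interval -0.26 to 0.06), and as it lies at the start of the gene it checks nothing about the deletion. The promoters of the 35 genes with the sarcomere term had a median of 38.8 CPM in Wtap-CKO and 44.2 CPM in Wtapflox/flox, above the medians of 22.4 CPM in Wtap-CKO and 22.8 CPM in Wtapflox/flox over the promoters of all 16298 genes with one. In tissue that mixes cell types, fewer cells of a type and less accessibility per cell cannot be told apart.

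Gene end peaks, as a group, leaned slightly towards Wtap-CKO by reads in peaks and away from it by the authors' scaling. They took 2.24% of all reads in peaks in Wtap-CKO (220216 reads) and 2.12% in Wtapflox/flox (208267 reads), a log2 ratio of the sums of 0.08. Their median log2 ratio was 0.09, with quartiles at -0.30 and 0.48, and 1320 of the 2313 lay above 0 (57.1%), where 51.1% of all peaks and 54.0% of other peaks outside promoters did. That lean depends on the scaling: with the authors' deposited values, which divide by a library total that makes 1 read worth 0.01475 RPM in Wtap-CKO and 0.0171 RPM in Wtapflox/flox, the same median was -0.12 and 972 peaks (42.0%) lay above 0, where 35.5% of all peaks and 40.1% of other peaks outside promoters did. The authors' values also add 1 read in place of 0.5 CPM, and together these choices lower the median of all peaks by 0.22. Over all 83549 peaks the median was 0.00 by reads in peaks and -0.21 by the authors' values.

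Among the classes of the annotation, the ends of genes had the upper medians, and 5' UTR peaks and promoter peaks near a start the lowest. By reads in peaks, the medians were 0.08 for 3' UTR peaks and 0.11 for downstream peaks, against 0.08 for exon, 0.06 for distal intergenic, 0.04 for intron and 0.05 for the more distant promoter peaks. Promoter peaks within 1 kb of a start had a median of -0.06, and so did the 80 peaks in a 5' UTR. By the authors' values all of these medians were below 0, at -0.13 for 3' UTR, -0.10 for downstream, -0.13 for exon, -0.27 for 5' UTR and -0.28 for near promoter peaks. Within the downstream peaks, the median was 0.12 below 1 kb, 0.11 from 1 to 2 kb and 0.09 from 2 to 3 kb. These differences between classes are small beside the spread within any class.

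**Figure D1:**
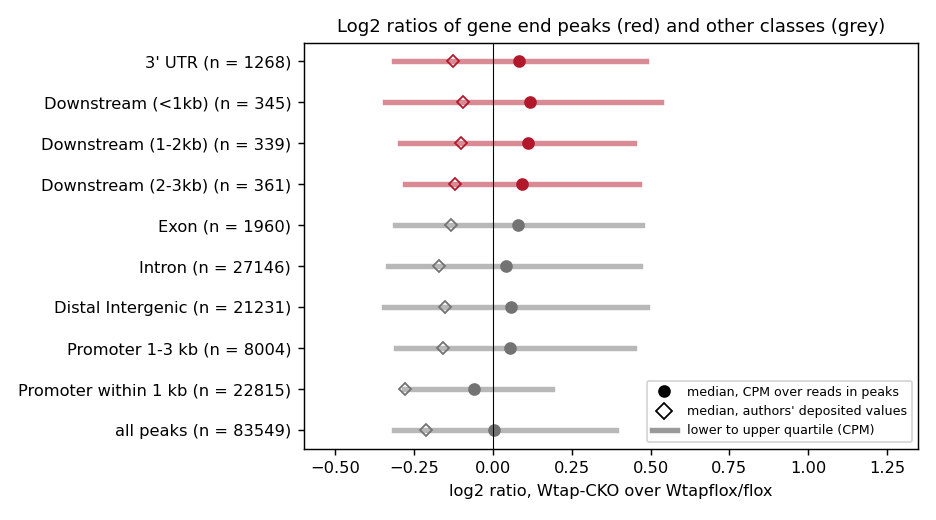
Log2 ratio (Wtap-CKO over Wtapflox/flox) by peak class, with n the number of peaks. Filled points are medians with CPM over reads in peaks, bars span the quartiles, and open diamonds are medians of the authors' deposited values. The 3' UTR and downstream medians, in red, lie between 0.08 and 0.12 by reads in peaks and between -0.13 and -0.09 by the authors' values, above the near promoter median under both.

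The chart of classes shows medians that differ by little and bars that overlap for every class. Peak strength and size move with class as well: gene end peaks had a median of 6.31 CPM and a width of 324 bp, and near promoter peaks 14.2 CPM and 504 bp, while all peaks had 6.66 CPM and 340 bp and other peaks outside promoters 5.39 CPM and 313 bp. The part of these in the gap between the classes was not tested across promoters. When gene end peaks were cut into 4 bins of equal size by signal, at 4.12, 6.31 and 10.9 CPM, the medians by reads in peaks were 0.04, 0.18, 0.10 and 0.04 in order of signal. Other peaks outside promoters in the same ranges of signal had medians of 0.04, 0.09, 0.08 and -0.01. Gene end peaks were thus at or above them by at most 0.09 in each bin.

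Peaks that differed by 2-fold or more were few. Counting needs a minimum of reads, so a floor was set at the lower quartile of all peaks, 3.92 CPM or about 38.5 reads for Wtap-CKO and 38.6 for Wtapflox/flox, and 1782 gene end peaks (77.0%) were over it. Of these, 77 (4.32%) were higher in Wtap-CKO by 2-fold or more, where the same held for 3.5% of all peaks over the floor. At least 2-fold lower were 21 (1.18%), where the same held for 1.45% of all peaks over the floor. The share on the higher side was near, and on the lower side just under, that of the whole table, and other peaks outside promoters had 4.58% higher and 1.84% lower. By the authors' values the split turned round, with 45 higher and 68 lower of the same 1782. It turned round for all 62662 peaks over the floor too, from 2195 higher and 909 lower to 1375 higher and 2810 lower.

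The 3' UTR and downstream peaks gave similar counts. Of 981 3' UTR peaks over the floor, 39 (3.98%) were 2-fold higher and 12 (1.22%) lower. Of 801 downstream peaks over the floor, 38 (4.74%) were higher and 9 (1.12%) lower. By distance, 17 were higher and 3 lower of 271 downstream peaks under 1 kb, 11 and 2 of 254 from 1 to 2 kb, and 10 and 4 of 276 from 2 to 3 kb.

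By counting error alone, 597 gene end peaks (25.8%) had an interval wholly above 0, where 21.2% of all peaks did, and 369 (16.0%) had one wholly below 0, where 18% of all peaks did. All 77 higher and all 21 lower peaks were among them, which the floor and the 2-fold limit fix in advance, so it is no further check. An interval of this kind holds no difference between mice or between preparations. Of those over the floor, 68.9% lay within 0.5 of 0 on the log2 scale.

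**Figure D2:**
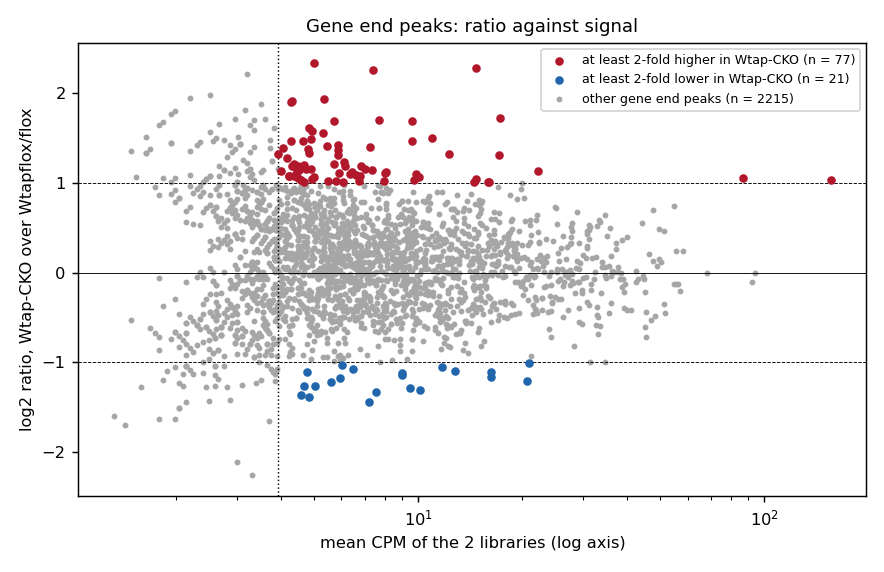
Log2 ratio (Wtap-CKO over Wtapflox/flox) for each of the 2313 gene end peaks against its mean CPM in the libraries (log axis). Red points are the 77 peaks at least 2-fold higher and blue points the 21 at least 2-fold lower in Wtap-CKO, dashed lines mark 2-fold and the dotted line the floor of 3.92 CPM. The spread narrows with signal, and the 2 coloured peaks of highest signal are both on the higher side.

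The plot of ratio against signal has most of its red points, but not most of its blue ones, below the median signal of all peaks. Of the higher peaks 28 of 77, and of the lower ones 12 of 21, had at least the median signal of all peaks, 6.66 CPM. Whether the authors' peak caller marked the peak in one library or both went with the ratio, because both rest on the same reads. It marked 1386 gene end peaks in both libraries (59.9%), 447 in Wtap-CKO only (19.3%) and 480 in Wtapflox/flox only (20.8%), where the shares over all peaks were 61.2%, 17.6% and 21.2%. Those marked in Wtap-CKO only had median counts of 48 reads from Wtap-CKO hearts and 27 from Wtapflox/flox hearts. Those marked in Wtapflox/flox only had 31 for Wtap-CKO and 44 for Wtapflox/flox, and those marked in both had 94 for Wtap-CKO and 89 for Wtapflox/flox. Of the 77 higher peaks 59 were marked in Wtap-CKO only, and of the 21 lower ones 14 in Wtapflox/flox only.

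To say which gene's end a peak marks, each peak was tied to a single gene, called its gene below. For a 3' UTR peak this is the gene whose listed transcript overlaps it, with an end at most 10000 bp away. For a downstream peak it is the gene whose listed transcript ends at the labelled distance. The rule does not check that a 3' UTR peak lies in that gene's own 3' UTR, and 407 such peaks lay farther than 1000 bp from the listed end, against 529 within it. The table itself lists the gene with the nearest start, and for 753 of the 1821 peaks with a single such gene (41.4%) that was another gene. The 1821 peaks (936 in a 3' UTR, 885 downstream) belonged to 1616 genes, of which 1428 had 1 gene end peak, 175 had 2 and 13 had 3 or more. A further 295 peaks had no candidate among the listed transcripts and 197 had several or only distant ones. Genes are given by their Ensembl identifiers and by the Gene Ontology (GO) terms the table lists for them, since the table holds no symbols.

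The 3' UTR peaks with the highest ratios among those of at least median signal stood at genes of varied function, and their promoters mostly did not follow. The peaks were picked for their ratios and the promoters were not, so the choice alone favours promoters nearer to 0. At chr13:58147487-58148167 (GRCm39, as for all positions below), in the 3' UTR of ENSMUSG00000014164, a gene with Cul3-RING ubiquitin ligase complex, actin binding and renal sodium absorption terms, the peak held 242 reads from Wtap-CKO hearts and 46 from Wtapflox/flox hearts (log2 ratio 2.28, interval 1.94 to 2.89). The promoter of the same gene held 192 reads from Wtap-CKO hearts and 206 from Wtapflox/flox hearts (-0.10). The gene end held several times more reads in the Wtap-CKO library, while the start of the gene was within counting error of equal.

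At ENSMUSG00000039714, whose terms name the SNARE complex and synaptic vesicle exocytosis, the 3' UTR peak at chr9:57507936-57508261 held 123 reads from Wtap-CKO hearts and 22 from Wtapflox/flox hearts (2.25, interval 1.82 to 3.21). A 3' UTR peak 415 bp away held 77 reads for Wtap-CKO and 43 for Wtapflox/flox (0.78), and a downstream peak 2173 bp to the other side held 182 in Wtap-CKO and 97 in Wtapflox/flox (0.88). All 3 neighbouring peaks were higher in Wtap-CKO.

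ENSMUSG00000020890, a receptor guanylate cyclase by its terms, with photoreceptor and cGMP signalling roles, had 262 reads from Wtap-CKO hearts and 76 from Wtapflox/flox hearts at chr11:69111856-69112376 (1.72, interval 1.41 to 2.18). An intergenic peak 9218 bp away had a like ratio, with 115 reads for Wtap-CKO and 32 for Wtapflox/flox (1.70), while the promoter held 58 reads from Wtap-CKO hearts and 54 from Wtapflox/flox hearts (0.10). The 3' UTR peak at chr1:36231063-36231522, with no single gene assigned, held 146 reads from Wtap-CKO hearts and 42 from Wtapflox/flox hearts (1.69). At the guanylate cyclase gene the difference was thus shared by the intergenic peak and not by the promoter.

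ENSMUSG00000027189, annotated to defence against virus and to positive regulation of cytokine signalling, had 3 peaks along its 3' UTR on chromosome 2. They held 66, 161 and 51 reads from Wtap-CKO hearts and 26, 54 and 51 from Wtapflox/flox hearts, giving log2 ratios of 1.20, 1.5 and 0.00 along the chromosome. Together they held 278 reads from Wtap-CKO hearts and 131 from Wtapflox/flox hearts (1.09, interval 0.78 to 1.40), and the promoter 309 for Wtap-CKO and 320 for Wtapflox/flox (-0.05). The first and middle peaks, 490 bp apart, were higher in Wtap-CKO, and the last one was not.

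Of the remaining 3' UTR peaks among the 10 highest, log2 ratios ran between 1.13 and 1.47. At chr2:144385563-144385971 the peak has its centre 26 bp from the listed end of ENSMUSG00000027428, and a gene on the other strand ends within 3000 bp. It held 141 reads from Wtap-CKO hearts and 48 from Wtapflox/flox hearts (1.47), with the promoter at 73 for Wtap-CKO and 89 for Wtapflox/flox (-0.27). At chr1:85646525-85647129, in a transcription factor gene, ENSMUSG00000052760, the peak held 174 reads for Wtap-CKO and 67 for Wtapflox/flox (1.32), and here the promoter was also the higher one in Wtap-CKO, with 177 reads for Wtap-CKO and 122 for Wtapflox/flox (0.52). The widest counting interval among these 10 peaks belonged to the SNARE gene above. At chr6:42336326-42337000 the counts were 301 in Wtap-CKO and 135 in Wtapflox/flox (1.13), and neither neighbouring peak shared the difference, with log2 ratios of -0.15 on each side.

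Among downstream peaks of at least median signal, those with the highest ratios were led by one at chr4:141300912-141301224, with 118 reads from Wtap-CKO hearts and 33 from Wtapflox/flox hearts (1.70, interval 1.27 to 2.44). The next, at chr6:31494785-31495637, lies past the end of ENSMUSG00000025608, a membrane protein gene with microvillus, cell adhesion and lamellipodium terms. It held 242 reads from Wtap-CKO hearts and 95 from Wtapflox/flox hearts (1.31, interval 1.0 to 1.71), and was marked in Wtap-CKO only. The promoter of that gene went the other way, with 127 reads from Wtap-CKO hearts and 161 from Wtapflox/flox hearts (-0.33). The other 3 of the 5 highest of these downstream peaks, on chromosomes 9, 5 and 12, had log2 ratios of 1.15, 1.15 and 1.12 and between 97 and 110 reads in Wtap-CKO.

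The peak with the highest ratio of all gene end peaks over the floor was weaker. At chr15:83041240-83041480, in the 3' UTR of ENSMUSG00000018042, a cytochrome-b5 reductase gene with mitochondrial membrane and lipid metabolism terms, it held 85 reads from Wtap-CKO hearts and 13 from Wtapflox/flox hearts (2.33, interval 1.86 to 3.68). A second 3' UTR peak only 82 bp away held 39 reads from Wtap-CKO hearts and 54 from Wtapflox/flox hearts (-0.42), and the promoter held 507 for Wtap-CKO and 417 for Wtapflox/flox (0.28). The neighbouring peak and the promoter did not share the difference seen at this 241 bp stretch.

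Among 3' UTR peaks of at least median signal, the 10 lowest log2 ratios lay between -1.31 and -0.93 and the 10 highest between 1.13 and 2.28. At chr3:65738254-65738636 the peak held 55 reads from Wtap-CKO hearts and 144 from Wtapflox/flox hearts (-1.31, interval -1.86 to -0.93), and a nearby intronic peak held 69 for Wtap-CKO and 127 for Wtapflox/flox (-0.83). At chr8:112351291-112351820 there were 120 reads from Wtap-CKO hearts and 285 from Wtapflox/flox hearts (-1.21), while another 3' UTR peak 54 bp away had a log2 ratio of -0.26.

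Genes tied to the remaining low 3' UTR peaks included regulators of transcription and genes of cell junctions and matrix. ENSMUSG00000048582, a gap junction gene with a connexon complex term, had 54 reads from Wtap-CKO hearts and 123 from Wtapflox/flox hearts at chr14:57271671-57271919 (-1.12, interval -1.67 to -0.71). Another 3' UTR peak, 488 bp away, held 202 reads for Wtap-CKO and 274 for Wtapflox/flox (-0.43), and its promoter 133 in Wtap-CKO and 174 in Wtapflox/flox (-0.37), so that all 3 regions were lower in Wtap-CKO.

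ENSMUSG00000042961, a gene of the basement membrane and interstitial matrix, had 60 reads from Wtap-CKO hearts and 122 from Wtapflox/flox hearts at chr15:7235610-7235965 (-0.96, interval -1.49 to -0.56). Its promoter was lower in nearly the same measure, with 151 reads from Wtap-CKO hearts and 280 from Wtapflox/flox hearts (-0.87), while the downstream peak 1764 bp away was not (107 reads for Wtap-CKO and 99 for Wtapflox/flox, 0.11). At this gene, the end within the transcript and the start were lower together.

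The sequence-specific transcription factor gene ENSMUSG00000021604 had 53 reads from Wtap-CKO hearts and 123 from Wtapflox/flox hearts at chr13:73416893-73417182 (-1.14), with its promoter at 71 reads for Wtap-CKO and 116 for Wtapflox/flox (-0.67). For the other such gene among the 10 lowest, ENSMUSG00000040841, the counts at chr7:18831856-18832124 were 78 in Wtap-CKO and 173 in Wtapflox/flox (-1.10), with 410 for Wtap-CKO and 490 for Wtapflox/flox at the promoter (-0.25). Both 3' UTR peaks were marked in Wtapflox/flox only, and both promoters leaned the same way by less.

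At ENSMUSG00000051910 the 3' UTR peak at chr7:115072012-115072437 held 99 reads from Wtap-CKO hearts and 220 from Wtapflox/flox hearts (-1.11, interval -1.51 to -0.80). The promoter held 636 reads for Wtap-CKO and 957 for Wtapflox/flox (-0.58), an exon peak 3762 bp from the gene end peak 21 for Wtap-CKO and 56 for Wtapflox/flox (-1.23), and an intergenic peak 5536 bp to the other side 223 in Wtap-CKO and 338 in Wtapflox/flox (-0.59). All 4 regions were lower in Wtap-CKO.

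Just short of 2-fold, a 3' UTR peak on chromosome 18 belonged to ENSMUSG00000024472, whose terms name mRNA decapping, mRNA decay and 5'-3' exoribonuclease activity. It held 49 reads from Wtap-CKO hearts and 103 from Wtapflox/flox hearts (log2 ratio -0.999), with 357 for Wtap-CKO and 358 for Wtapflox/flox at the promoter (0.00 to 2 decimals). Just inside on the same side, the downstream peak at chr2:118845997-118846489 held 135 reads from Wtap-CKO hearts and 276 from Wtapflox/flox hearts (-1.003). On the higher side, the peak just inside was at chr8:79459004-79459996, with 211 reads for Wtap-CKO and 103 for Wtapflox/flox (1.003). Just outside was a downstream peak at chr9:107203083-107203486, with 263 reads from Wtap-CKO hearts and 130 from Wtapflox/flox hearts (0.993). The limit of 2-fold cuts through an unbroken range of ratios.

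The 5 lowest log2 ratios of downstream peaks of at least median signal ran from -1.44 to -1.003. The lowest, at chr8:79936702-79937014, held 36 reads from Wtap-CKO hearts and 106 from Wtapflox/flox hearts (-1.44, interval -2.14 to -1.0). At ENSMUSG00000037499, a secreted growth factor gene by its terms, also annotated to the mitochondrion, the counts at chr1:191036006-191036258 were 40 for Wtap-CKO and 108 for Wtapflox/flox (-1.33), and an intergenic peak 1504 bp away held 40 reads from Wtap-CKO hearts and 87 from Wtapflox/flox hearts (-1.03). The promoter of that gene held 213 reads for Wtap-CKO and 254 for Wtapflox/flox (-0.25), so the difference was shared by the neighbouring peak and was smaller at the promoter.

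Past the end of ENSMUSG00000028700, a Golgi enzyme of O-linked glycosylation, the peak at chr4:116017824-116018371 held 97 for Wtap-CKO and 223 for Wtapflox/flox (-1.16, interval -1.56 to -0.85). The log2 ratio of its promoter was -0.30.

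**Figure D3:**
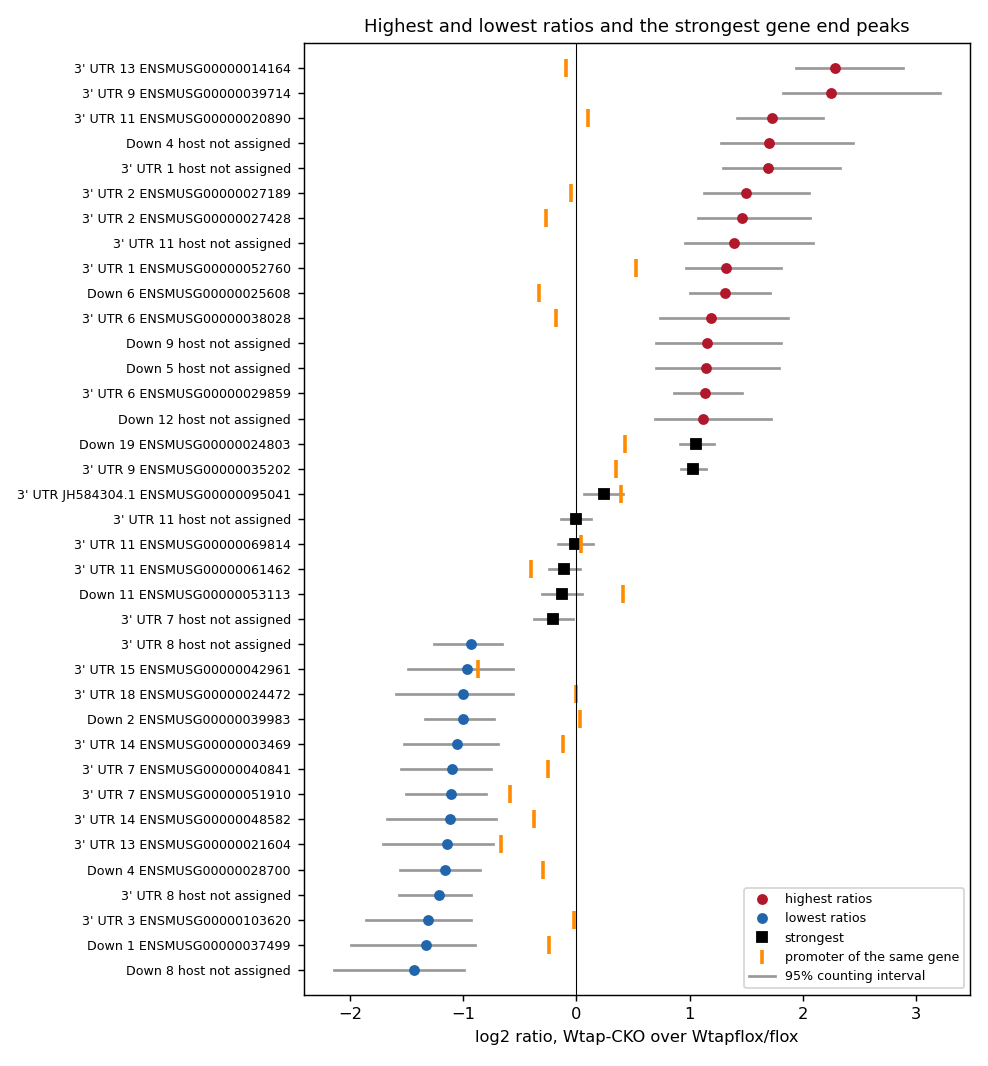
Log2 ratio (Wtap-CKO over Wtapflox/flox) for the gene end peaks with the highest (red) and lowest (blue) ratios among those of at least median signal, and for the 8 strongest (black squares), each labelled by class, chromosome and gene. Grey bars are 95% counting intervals and orange ticks the promoter of the same gene. The promoter ticks lie between -0.87 and 0.52, nearer to 0 than the gene end peak for all of the red and blue peaks that have one. The red and blue peaks were picked for extreme ratios and the promoters were not, so the choice alone favours promoters nearer to 0.

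The chart of highest and lowest peaks also shows the 8 strongest gene end peaks, of which 6 were close to equal. The strongest of all lies at chr9:123290785-123291333 in the 3' UTR of ENSMUSG00000035202, the mitochondrial leucine-tRNA ligase by its terms. It held 2049 reads from Wtap-CKO hearts and 1005 from Wtapflox/flox hearts (1.03, interval 0.92 to 1.14; 0.81 by the authors' values), while the promoter held 390 for Wtap-CKO and 305 for Wtapflox/flox (0.35). No flanking peak shared that size of difference, with log2 ratios of 0.54 and -0.24 on its sides.

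A wide downstream peak of 1665 bp at chr19:36087538-36089202, 159 bp past the end of ENSMUSG00000024803, was similar, with 1152 reads from Wtap-CKO hearts and 552 from Wtapflox/flox hearts (1.06, interval 0.92 to 1.21). Its promoter was higher in Wtap-CKO as well, with 741 reads for Wtap-CKO and 550 for Wtapflox/flox (0.43). How uniquely reads map at these strong peaks was not tested.

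The other 6 strong peaks had log2 ratios between -0.20 and 0.24. The widest of all gene end peaks, 1920 bp at chr11:58901075-58902994 in the 3' UTR of ENSMUSG00000061462, a serine/threonine kinase gene with guanine nucleotide exchange terms, held 869 reads from Wtap-CKO hearts and 938 from Wtapflox/flox hearts (-0.11), less of a difference than its promoter at 1164 for Wtap-CKO and 1544 for Wtapflox/flox (-0.40). At chr11:100954385-100955303 the counts were 922 in Wtap-CKO and 926 in Wtapflox/flox (0.00 to 2 decimals). At chr11:74528748-74530107 they were 667 for Wtap-CKO and 673 for Wtapflox/flox (-0.01), so these long open ends were alike in both libraries within counting error.

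At a gene's end and start together, the ends were the higher of the pair more often than not. For 1127 gene end peaks whose gene also had promoter signal over the floor, the median log2 ratio was 0.08 at the end and -0.12 at the promoter by reads in peaks. The median difference between end and promoter, which hardly depends on the library scaling, was 0.20, with quartiles at -0.15 and 0.53, and the end was above the promoter in 720 pairs (63.9%). Gene ends have fewer reads, with medians of 86 in Wtap-CKO and 82 in Wtapflox/flox against promoter medians of 307 in Wtap-CKO and 332 in Wtapflox/flox, so their ratios scatter more. Standing above near promoter peaks (median -0.06) is not particular to gene ends. Exon, distal intergenic, more distant promoter and intron peaks also did, with medians of 0.08, 0.06, 0.05 and 0.04 by reads in peaks. Pairs within a gene were not formed for those classes.

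The ratios at the 2 ends of a gene went together only weakly: Pearson's r was 0.12 and Spearman's rank coefficient 0.10 across the 1127 pairs, which share both libraries and in part the same genes. Of 44 pairs with a gene end peak at least 2-fold higher in Wtap-CKO, 0 had a promoter at 2-fold and 7 had a promoter interval above 0, and the median promoter ratio was -0.08. Of 17 pairs with a gene end peak at least 2-fold lower, 0 had a promoter at 2-fold and 7 an interval below 0, with a median promoter ratio of -0.18. Over all near promoter peaks, taken singly, 14.6% had an interval above 0 and 22.3% one below 0, and of those over the floor 1.38% were 2-fold higher and 0.841% lower.

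**Figure D4:**
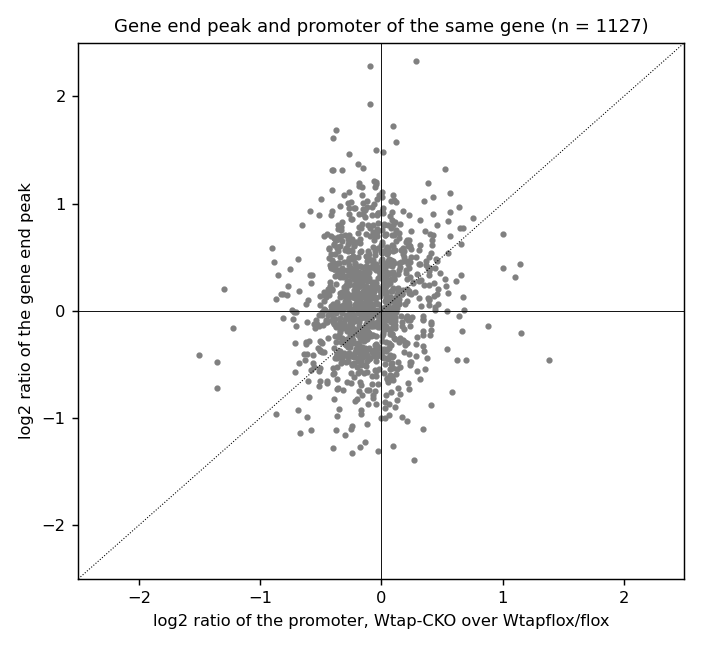
Log2 ratio (Wtap-CKO over Wtapflox/flox) at the gene end peak (vertical axis) against that of the promoter of the same gene (horizontal axis) for 1127 pairs. Each point is a pair and the dotted line marks equal ratios. The cloud is taller than wide and has little slope (Pearson's r 0.12), and 720 points lie above the line.

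The scatter of ends against promoters has no point with both ratios past 2-fold on the same side. Peaks next to those 2-fold higher and those 2-fold lower lay on either side of the median of all such neighbours. The closest peaks within 10000 bp of the higher gene end peaks, 91 in number, had a median log2 ratio of 0.15 and 55 lay above 0 (60.4%). The 30 beside the lower ones had a median of -0.08 and 12 lay above 0 (40.0%). Beside any gene end peak, 2421 such neighbours had a median of 0.04 and 53.2% lay above 0. All 3 medians are by reads in peaks, and the authors' values, which lower the median of all peaks by 0.22, were not computed for them.

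Position along the gene went with small differences in the median by reads in peaks. The 529 3' UTR peaks within 1000 bp of their gene's listed end had a median of 0.12, and the 407 farther from it had -0.01, with -0.10 and -0.23 by the authors' values. Peaks whose gene also had the nearest start had 0.11 (1068 peaks) and those nearest to the start of another gene 0.04 (753 peaks). Peaks with the end of another gene on the opposite strand within 3000 bp of their centre, 166 in all, had 0.08, and the 1655 others 0.07.

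By distance to the nearest start, in rising bins with bounds at 5, 10 and 20 kb, the medians by reads in peaks were 0.09 (606 peaks), 0.12 (867), 0.12 (510) and 0.02 (330). No gene end peak lay nearer than 3005 bp to a start, because the annotation gives peaks close to a start to promoters first. The median distance was 7803 bp. Ends of genes that lie closer to a start are therefore not among these peaks.

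Over the chromosomes, 2285 of the peaks were on the 19 autosomes, 21 on X, 7 on unplaced contigs and 0 on Y. The median by reads in peaks was above 0 on 16 of the 19 autosomes and ran from -0.04 on chromosome 14 to 0.22 on chromosome 5.

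Among genes with several gene end peaks, the peaks lay on the same side of 0 at some genes and on both sides at others. The gene with the most, ENSMUSG00000095041 on the unplaced contig JH584304.1, a phosphatidylserine decarboxylase by its terms, had 6 peaks with 2451 reads from Wtap-CKO hearts and 2045 from Wtapflox/flox hearts (0.26, interval 0.18 to 0.35). All 6 were above 0, from 0.06 to 0.50, and its promoter held 3729 reads for Wtap-CKO and 2843 for Wtapflox/flox (0.39). How reads map to this contig was not tested. The 0.22 by which the authors' values lower the median of all peaks is most of that difference.

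ENSMUSG00000032194 had 3 peaks in its 3' UTR on chromosome 9, with 207, 145 and 177 reads from Wtap-CKO hearts and 129, 111 and 119 from Wtapflox/flox hearts, and log2 ratios of 0.66, 0.37 and 0.56. Their sum was 529 reads from Wtap-CKO hearts and 359 from Wtapflox/flox hearts (0.56, interval 0.37 to 0.76). The promoter of the gene lay on the other side of 0, with 341 reads for Wtap-CKO and 404 for Wtapflox/flox (-0.24). All 3 peaks were higher in Wtap-CKO, by a modest and even amount.

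ENSMUSG00000003849, a NAD(P)H quinone dehydrogenase of the oxidative stress response by its terms, had 3 downstream peaks with 69, 180 and 101 reads from Wtap-CKO hearts and 66, 139 and 52 from Wtapflox/flox hearts. Their log2 ratios were 0.06, 0.36 and 0.90 and the sums 350 for Wtap-CKO and 257 for Wtapflox/flox (0.45), while the promoter held 287 reads from Wtap-CKO hearts and 328 from Wtapflox/flox hearts (-0.19). ENSMUSG00000030527, which carries CREB coactivation terms, had 336 reads from Wtap-CKO hearts and 248 from Wtapflox/flox hearts over 3 peaks (0.44), with the promoter at 500 for Wtap-CKO and 469 for Wtapflox/flox (0.09).

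Other genes were mixed or lower. ENSMUSG00000044033, a homophilic cell adhesion gene with 4 peaks on chromosome 2, had log2 ratios from -0.42 to 1.43, and its sums of 217 reads from Wtap-CKO hearts and 192 from Wtapflox/flox hearts hid that spread (0.18, interval -0.11 to 0.47). ENSMUSG00000057230, a Notch-binding serine/threonine kinase gene, had 680 reads for Wtap-CKO and 809 for Wtapflox/flox over 3 peaks (-0.25, interval -0.40 to -0.10). Its peaks were mixed too, with log2 ratios of -0.30, -0.49 and 0.32 along the chromosome. ENSMUSG00000003469, annotated to protein localization, had 294 reads from Wtap-CKO hearts and 418 from Wtapflox/flox hearts over 3 peaks (-0.50, interval -0.73 to -0.29), none of them above 0. Peaks also lay on both sides of 0 at ENSMUSG00000002608 (-0.56 to 0.44, sums -0.19) and ENSMUSG00000029442 (-0.79 to 0.54, sums -0.27). The same held at ENSMUSG00000036306 (-0.23 to 1.02, sums 0.12) and ENSMUSG00000052928 (-0.12 to 1.08, sums 0.54). All peaks of ENSMUSG00000086940 were below 0 (-1.10 to -0.07, sums -0.22).

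By function, the medians of all groups with 20 or more peaks lay within 0.25 of 0 by reads in peaks. Of the peaks with a gene, 1333 at 1183 genes had GO terms, and of those over the floor 40 of 1047 were 2-fold higher and 15 lower, with a median of 0.07 by reads in peaks. Over 16 groups made from GO terms, 12 medians were above 0 by reads in peaks and 1 by the authors' values. The groups overlap in members, and 189 of the genes had terms left out while 244 had none.

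Of 25 peaks at genes of the contractile apparatus 19 were over the floor, 2 were 2-fold higher and 1 lower, with a median of -0.07 (-0.28 by the authors' values). The highest, downstream of ENSMUSG00000041361, a Z disc and I band gene, at chr9:71409839-71410136, held 81 reads from Wtap-CKO hearts and 35 from Wtapflox/flox hearts (1.11, interval 0.62 to 1.83), with its promoter at 293 for Wtap-CKO and 354 for Wtapflox/flox (-0.27). The lowest, in the 3' UTR of ENSMUSG00000041731, a gene of the intercalated disc and adherens junctions, at chr19:24660752-24661067, held 39 reads from Wtap-CKO hearts and 88 from Wtapflox/flox hearts (-1.08, interval -1.75 to -0.61). The promoter of ENSMUSG00000041731 held 337 reads for Wtap-CKO and 400 for Wtapflox/flox (-0.24). A separate peak 6445 bp from the 3' UTR peak, annotated 2 to 3 kb from a start, differed more. It held 34 reads for Wtap-CKO and 165 for Wtapflox/flox (-2.12), and its gene was not assigned here.

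Of 36 peaks at genes of ion channels and the sarcoplasmic reticulum, 0 of 27 over the floor were 2-fold higher and 1 was lower, the gap junction gene above, with a median of 0.05. The highest, at a sodium channel gene, ENSMUSG00000030340, held 51 reads from Wtap-CKO hearts and 28 from Wtapflox/flox hearts (0.77), and its promoter leaned the same way at 114 for Wtap-CKO and 70 for Wtapflox/flox (0.67).

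Genes of transcription factors and their regulators had 96 peaks with a median of 0.00, and of 76 over the floor 4 were higher and 6 lower. The lowest, at chr15:103107026-103107286 in the 3' UTR of ENSMUSG00000009575, a gene with heterochromatin and histone deacetylase complex terms, held 24 reads from Wtap-CKO hearts and 71 from Wtapflox/flox hearts (-1.39, interval -2.29 to -0.88). Its promoter leaned the other way, with 1323 reads for Wtap-CKO and 1097 for Wtapflox/flox (0.27). Genes of chromatin organization had 30 peaks with a median of 0.20 by reads in peaks (0.00 to 2 decimals by the authors' values), with 2 higher and 1 lower of 22.

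Genes that act on RNA were of interest because Wtap serves mRNA methylation. RNA binding and mRNA processing genes had 80 peaks with a median of 0.15 by reads in peaks and -0.06 by the authors' values, and of 62 over the floor 2 were higher and 0 lower. The highest of them, downstream of ENSMUSG00000052928 on chromosome 18, a gene of nonsense-mediated decay and translation initiation, held 90 reads from Wtap-CKO hearts and 40 from Wtapflox/flox hearts (1.08, interval 0.62 to 1.75), with its promoter at 250 for Wtap-CKO and 311 for Wtapflox/flox (-0.31). The lowest was at the mRNA decapping gene above, ENSMUSG00000024472. The group of mRNA methylation and m6A reading had 1 peak, under the floor, at chr3:123162888-123163135 in the 3' UTR of ENSMUSG00000028114. It held 13 reads from Wtap-CKO hearts and 34 from Wtapflox/flox hearts (-1.12, interval -2.43 to -0.43), while the promoter held 233 for Wtap-CKO and 185 for Wtapflox/flox (0.33).

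Extracellular matrix and collagen genes had 49 peaks with a median of 0.09, and of 41 over the floor 1 was higher and 0 lower. That peak lies past the end of the Wnt ligand gene ENSMUSG00000030170 at chr6:119408866-119409252 and held 87 reads from Wtap-CKO hearts and 38 from Wtapflox/flox hearts (1.10, interval 0.63 to 1.79). Its neighbours on both sides were higher too, a downstream peak with 108 reads for Wtap-CKO and 55 for Wtapflox/flox (0.92) and an intronic one with 114 for Wtap-CKO and 54 for Wtapflox/flox (1.02), and the promoter held 568 reads from Wtap-CKO hearts and 382 from Wtapflox/flox hearts (0.57). All 4 regions were higher in Wtap-CKO.

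Angiogenesis and endothelium genes had 37 peaks with a median of 0.04, with 2 higher and 0 lower of 27. The highest, past the end of the tight junction gene ENSMUSG00000021636 at chr13:100730595-100731041, held 88 reads from Wtap-CKO hearts and 24 from Wtapflox/flox hearts (1.69, interval 1.21 to 2.59), with its promoter at 69 for Wtap-CKO and 91 for Wtapflox/flox (-0.37). Immune and inflammatory genes had the highest median of all groups by reads in peaks and the only one above 0 by the authors' values, 0.25 and 0.05 over 36 peaks, with 1 higher and 0 lower of 28. That higher peak, 97 bp past the end of ENSMUSG00000034641, an immune receptor gene by its terms, held 60 reads from Wtap-CKO hearts and 26 from Wtapflox/flox hearts (1.07).

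The mitochondrion group was the largest, with 120 peaks, a median of 0.07, and 3 higher and 1 lower of 86 over the floor. Protein kinases had 43 peaks with a median of 0.08 and 4 higher and 0 lower of 37. Wnt, Notch, BMP and TGF-beta signalling had 65 peaks at 0.05 with 2 higher and 0 lower of 52. Cell adhesion had 64 peaks at 0.04 with 1 each way of 45, cell cycle and division 64 at 0.00 with 1 each way of 48, and ubiquitin ligases and proteasome 57 at 0.01 with 1 higher and 0 lower of 46. These medians, all by reads in peaks, are below 0 by the authors' values.

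Among cell cycle genes the lowest peak, past the end of ENSMUSG00000019256, a gene of the aryl hydrocarbon receptor complex, held 27 reads from Wtap-CKO hearts and 72 from Wtapflox/flox hearts (-1.27, interval -2.11 to -0.76). Among ubiquitin genes the lowest just missed 2-fold, with 204 reads from Wtap-CKO hearts and 411 from Wtapflox/flox hearts past the end of ENSMUSG00000040525, a ubiquitin-protein transferase gene of epidermal growth factor receptor signalling (-0.99, interval -1.26 to -0.76), while its promoter held 220 for Wtap-CKO and 195 for Wtapflox/flox (0.17). The cytosolic ribosome had 2 peaks, past the ends of ENSMUSG00000060036 with 86 reads for Wtap-CKO and 157 for Wtapflox/flox (-0.83) and of ENSMUSG00000008683 with 39 reads from Wtap-CKO hearts and 52 from Wtapflox/flox hearts (-0.37).

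**Figure D5:**
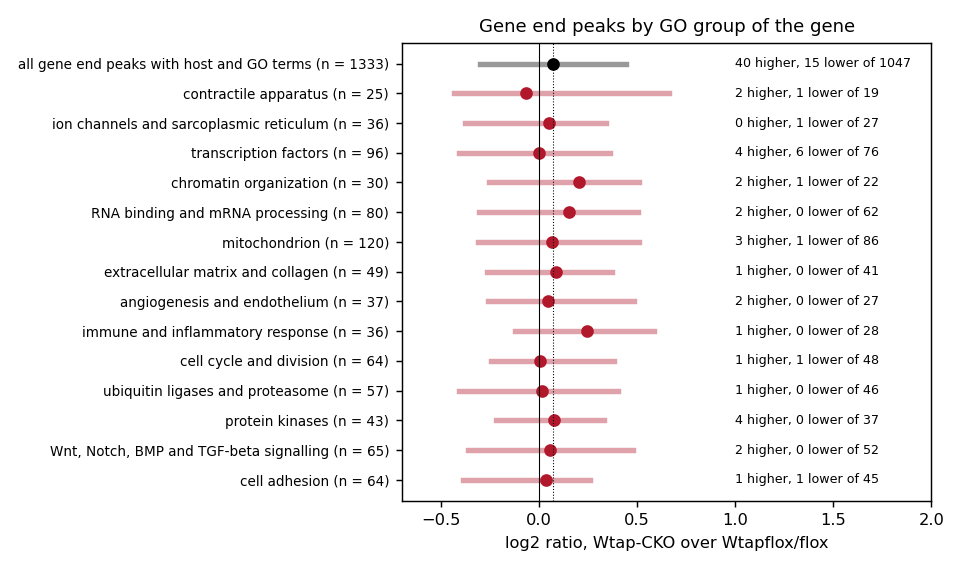
Log2 ratio (Wtap-CKO over Wtapflox/flox) of gene end peaks by GO group of the gene, with n the number of peaks, by reads in peaks. Points are medians, bars span the quartiles, the dotted line is the median of all gene end peaks with GO terms (0.07), and text at right counts peaks at least 2-fold higher or lower among those over the floor. All bars overlap, and the medians run from -0.07 for the contractile apparatus to 0.25 for the immune group. The 2 groups of fewer than 20 peaks are not drawn.

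The chart of GO groups shows no group whose quartile bar is clear of 0. The number of peaks 2-fold off in any group is at most 10, in 1 library per genotype.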

How the data were processed

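The authors' deposited table gives, for each peak, a count of reads per library, RPM per library and a log2 fold change. By the values, the deposited RPM is the count plus 1 times a constant for each library, and the deposited log2 fold change is of Wtap-CKO over Wtapflox/flox. Per the submitters' processing notes, fastp 0.20.0, BWA 0.7.12, MACS2 2.1.0, HOMER 4.11 and ChIPseeker were used with the build GRCm39, their roles not stated. Peak thresholds, the shift for the transposase, and any removal of duplicate or mitochondrial reads are not stated in the sources used here.

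From the counts, CPM over reads in peaks, log2 ratios with 0.5 CPM added, and 95% intervals (exact conditional binomial, Clopper-Pearson, on counts, with no CPM added) were computed with Python 3.11.15, pandas 2.3.3, numpy 2.4.6 and scipy 1.17.1. The steps were tested on simulated data. A floor at the lower quartile of CPM (percentile 25) and a limit of 2-fold made the counts of peaks. The gene of a 3' UTR peak is the single one whose listed transcript overlaps the peak, with an end at most 10000 bp away. That of a downstream peak is the single one whose listed transcript ends at the labelled distance, within 3000 bp. This rule was chosen after the data were seen. A gene's promoter is the sum of its peaks within 1000 bp of the start. Peaks named are, at or above the median CPM, the 10 highest and 10 lowest in 3' UTRs and the 5 highest and 5 lowest downstream, the 8 strongest, the extremes of each GO group, those next to the limit, and the genes with the most peaks. The remaining genes with 3 peaks were named after their values were seen. The members, GO groups and named peaks were chosen with earlier results of these data known. Cell type markers set by gene symbol could not be applied to a table without symbols. The result for 1 of the 5 lowest downstream peaks is not reported here.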

Additional observations from a re-analysis of the deposited data

How the results depend on the processing

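No paired analysis was possible because each genotype has 1 library. Counts of gene end peaks 2-fold higher and lower in Wtap-CKO, 77 and 21 as reported, were 31 and 9 with 2 CPM added before the log and 97 and 33 with 0.1 CPM, 151 and 64 with no floor, 28 and 12 with the floor at the median, 18 and 7 among peaks marked in both libraries, 285 and 126 at 1.5-fold, and 3 and 0 at 4-fold. They were 77 and 22 when centred on all peaks, and 76 and 21 on autosomes only. Over all peaks, the settings in the same order gave 905 and 361, 2708 and 1197, 5295 and 2613, and 802 and 417. The rest gave 549 and 247, 7678 and 5190, 66 and 15, 2195 and 964, and 2167 and 892. Settings that keep the floor and the set of peaks count over the same 1782 gene end peaks and 62662 of all peaks. The others count over different numbers of peaks, so their counts are not shares. With 0.1 CPM added, 5.44% of gene end peaks over the floor were higher, against 4.32% of all peaks. For lower peaks the shares were 1.85% of gene end peaks and 1.91% of all peaks. With the authors' RPM the counts of gene end peaks were 45 and 68, so that the share of higher peaks among those called went to 39.8%, against 78.6%, and the medians of 3' UTR and downstream peaks were -0.13 and -0.10. The authors' RPM turned the counts of all peaks round as well, from 2195 higher and 909 lower to 1375 and 2810. That setting changes both the library total and the value added before the log, and lowers the median of all peaks by 0.22. With the floor at the median the 3' UTR median was 0.042. The median difference between gene end and promoter stayed between 0.18 and 0.21 in every alternative run. Centring shifts both values alike and could not move it, and the authors' scaling shifts both almost alike, so those runs are no check of it. Settings that change only the floor or the set of peaks leave a peak's ratio as it is, so they could not move the named peaks. With the authors' RPM 8 of the named peaks moved beyond their counting interval and 52 did not. With 2 CPM added 2 moved and 58 did not. With 0.1 CPM added, and when centred on all peaks (a shift of 0.003), all 60 stayed. Of the group medians 17 moved and 124 did not, 12 of the 17 with the authors' RPM and 2 when groups were made by the gene of the nearest start, an alternative added after the data were seen. The 124 include 16 from the setting with no floor, which could not move because group medians use no floor. With 1 library per genotype no replicate could be left out. Depth limits weak peaks most: near the floor, the downstream peak of ENSMUSG00000037935 with 58 reads from Wtap-CKO hearts and 25 from Wtapflox/flox hearts had a log2 ratio of 1.07 with an interval of 0.52 to 1.96.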
